A study of Mus musculus with 9 samples.

Results

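A set of 6 genes of the circadian clock and its output was followed in mouse liver: Arntl (NCBI gene 11865, also called Bmal1), Cry1 (12952), Cry2 (12953), Bhlhe40 (20893), Dbp (13170) and Nfil3 (18030). They were taken from the table by gene symbol, with no limit on their values, and were 6 of the 5608 genes in the table. All 6 had a mean of at least 1 TPM, a measure of transcript abundance corrected for length and library total, over the libraries and were among the 4665 genes that passed this limit and were tested.

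The values come from RNA-seq of the livers of 9 wild-type mice of the C57BL/6J strain, 3 in each group, and each mouse was sequenced as 1 library. FED mice had free access to standard chow. IF (intermittently fasted) mice had no food for 24 h on day 1 and again on day 4, with standard chow in between. FMD mice received a fasting-mimicking diet, low in protein and rich in fat, from day 2 to day 4, at 50% of their average calories on the first day and 10% on the other days. All mice were sacrificed on day 5 and were kept at 12 h of light per day. By their labels the FED and IF libraries carry the numbers 1, 2 and 3, and the FMD libraries 1, 2 and 4. The hour of sacrifice is not given in the sources used here, and a difference in hour between groups or mice cannot be told apart from a difference by diet. All IF and FMD comparisons with FED share the same 3 FED libraries. In whole liver RNA, fewer cells of a type and less RNA per cell cannot be told apart.

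The circadian clock of liver cells is a feedback loop of transcription. The ARNTL protein, paired with CLOCK, binds E-box sequences and activates the Per and Cry genes, whose proteins then repress ARNTL and CLOCK, while BHLHE40 competes at the same E-boxes. A second loop acts through ROR elements, bound by the ROR activators and the repressor NR1D1, which controls Arntl and Nfil3, and the output factors DBP and NFIL3 act in opposite directions on D-box sequences of liver genes. Feeding time is a strong cue for the clock of the liver.

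The letters of these elements were searched on both strands in RefSeq promoter windows (GRCm38.p6) that run from 250 bases before to 50 bases after the annotated start. Windows were found for 5 of the 6 genes, all but Bhlhe40. The stretches that hold a match are shown so that the letters can be read, 5′ to 3′ on the strand of the gene, with the matched letters in capitals. Cry1 (chr10:85185089-85185153, minus strand) had the E-box CACGTG at position -60 and the variant CACGTT, read on the opposite strand, at -79. Cry2 (chr2:92434210-92434255, minus strand) had CACGTT on the opposite strand at -166. Nfil3 (chr13:52981040-52981071, minus strand) had the ROR element core TAGGTCA on the opposite strand at -12, and Arntl (chr7:113207531-113207560, plus strand) had it at position 31 after the more downstream of its 2 annotated starts.
Cry1: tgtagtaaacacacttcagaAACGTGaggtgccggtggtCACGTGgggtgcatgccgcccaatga
Cry2: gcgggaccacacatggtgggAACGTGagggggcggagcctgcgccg
Nfil3: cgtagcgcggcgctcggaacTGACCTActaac
Arntl: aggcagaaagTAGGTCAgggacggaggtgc

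Over all 32851 promoter windows of this length, CACGTG was present in 7.15%, CACGTT in 4.68%, and the ROR core, TAGGTCA or TGGGTCA, in 6.45%. No member window held the D-box TTANGTAA (2.32% of all windows) or the cAMP response element TGACGTCA (1.79%), and the Dbp window held none of the letters searched. None of these strings contains another, and a match here is a description of the letters only.

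Most genes of the table were higher under either diet, which bears on every difference given here. The listed genes summed to 26.3 to 29.3% of all TPM in the FED libraries, 32.9 to 34.9% in IF and 34.9 to 43.0% in FMD. Genes outside the table thus made up a smaller share under either diet. Over all genes tested the median log2 fold change was 0.24 in IF and 0.48 in FMD relative to FED, and 0.24 in FMD relative to IF. Each difference is therefore also given on scaled values, for which a library was divided by a factor, the median over genes of its TPM relative to the geometric mean of the 9 libraries. FMD replicate 1 stood apart: the TPM of the listed genes summed to 43.0% of all TPM in this library, against 36.3% and 34.9% in the other FMD libraries, and Pearson's r with them, over the log2 values of the tested genes, was 0.980 and 0.971, against 0.985 between those 2. Several of the differences are also given without this library. The most abundant listed genes included the liver plasma proteins Apoe, Hpx and Hp, while none of the 8 hepatocyte markers searched, such as Alb, was among the genes of the table.

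TPM is corrected for transcript length, so levels can be compared between the genes. In FED livers Bhlhe40 was highest at 25.6 ± 3.44 TPM (SD, n = 3), followed by Nfil3 at 16.9 ± 4.13, Dbp at 11.9 ± 2.19, Arntl at 6.74 ± 0.421, Cry2 at 6.70 ± 0.854 and Cry1 at 3.84 ± 1.04. The libraries of Nfil3 and Dbp overlapped, as did those of Arntl and Cry2, while the other neighbours in this order did not. In IF livers the order was Dbp (28.5 ± 8.92 TPM, SD, n = 3), Nfil3 (21.2 ± 3.79), Bhlhe40 (16.5 ± 0.822), Cry2 (11.6 ± 1.82), Arntl (6.68 ± 0.969) and Cry1 (4.77 ± 0.832). Here Dbp overlapped Nfil3, and Arntl overlapped Cry1. In FMD livers Dbp (33.9 ± 16.9 TPM, SD, n = 3) and Bhlhe40 (33.8 ± 12.3) were highest, ahead of Nfil3 (19.8 ± 8.28), Cry2 (13.1 ± 1.07), Arntl (7.91 ± 4.43) and Cry1 (5.92 ± 1.11), and of the neighbours in this order only Nfil3 and Cry2 did not overlap.

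**Figure D1:**
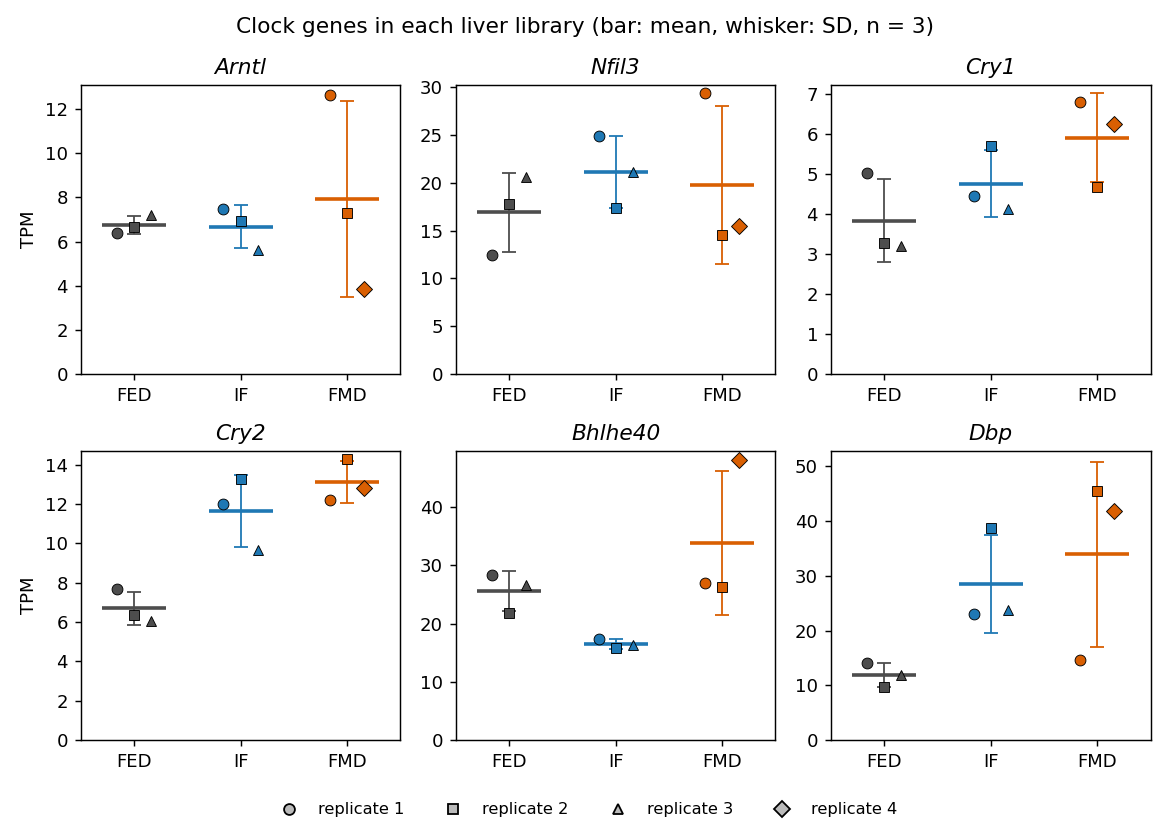
TPM of the 6 clock genes in each of the 9 livers, with 1 panel per gene, the marker shape giving the replicate number, the bar the group mean and the whisker the SD (n = 3). Cry2 and Dbp are above every FED library in all IF and FMD libraries, Bhlhe40 is lowest in IF, and FMD replicate 1 has the highest Arntl and Nfil3 and the lowest Dbp of the FMD mice.

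In IF vs FED livers Cry2 and Dbp rose, and none of the other 4 genes passed both limits, an adjusted p under 0.05 and a change of more than 1.5-fold on the log2(TPM + 1) scale in either direction. These 2 of 6 genes called compare with 11.9% of all genes tested, of which 10.3% were called higher and 1.59% lower. On scaled values 1 of 6 was called, Bhlhe40, which was lower, against 7.14% of all genes. The ranges of IF and FED were apart at 3 of the 6 genes (Cry2, Dbp and Bhlhe40), against 60.6% of all genes, or at 4 of 6 on scaled values, where Arntl joined them, against 46.2%.

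In FMD vs FED livers Cry2 and Dbp again rose, 2 of 6 genes against 37.1% of all genes tested, 35.5% called higher and 1.59% lower. The share among the clock genes was thus near that of all genes. On scaled values none of the 6 was called by limma, against 11.1% of all genes. By limma 1 of them, Cry2, had an unadjusted p under 0.05 (0.0318, adjusted p = 0.103). No share of all genes was counted for that unadjusted limit. The ranges of FMD and FED were apart at 2 of the 6 genes, against 70.7% of all genes, and on scaled values at 0 of 6, against 36.7%.

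In FMD vs IF livers Bhlhe40 alone rose, 1 of 6 genes against 5.14% of all genes tested, 4.67% called higher and 0.472% lower. On scaled values limma called none of the 6, against 2.23% of all genes. By limma 1 of them, Bhlhe40, had an unadjusted p under 0.05 (0.0215, adjusted p = 0.14). No share of all genes was counted for that unadjusted limit. The ranges of FMD and IF were apart at Bhlhe40 alone, against 36.7% of all genes, and again at this 1 gene on scaled values, against 26.3%.

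**Figure D2:**
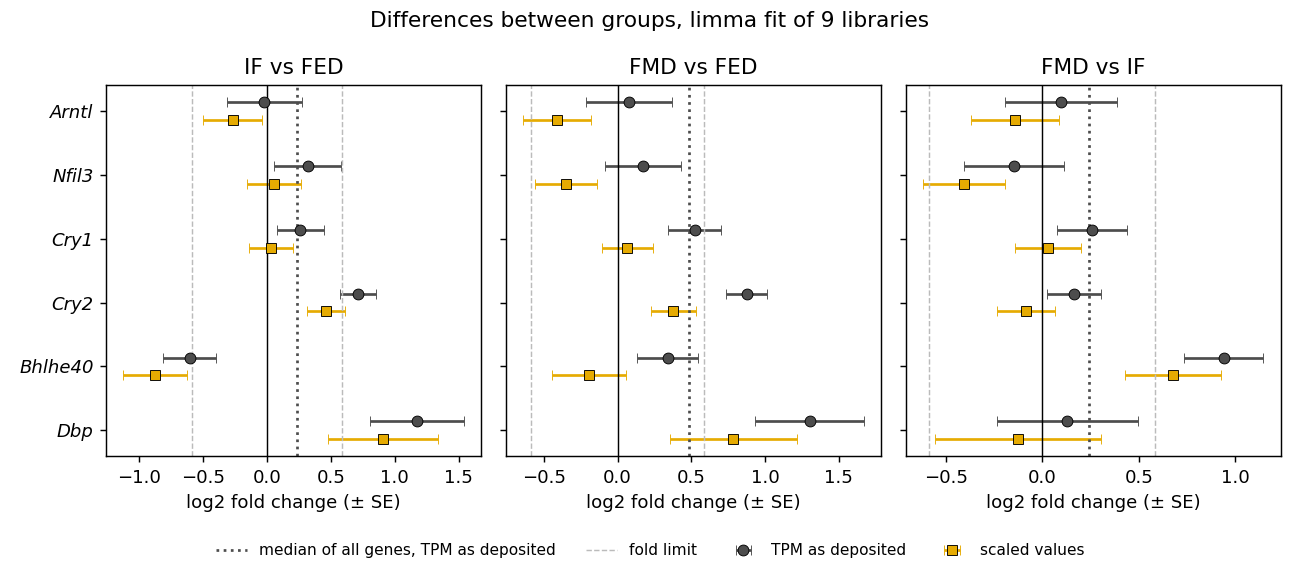
Log2 fold change of each clock gene in the 3 comparisons, from the limma fit of all 9 libraries, with the standard error as whisker, for TPM as deposited (grey circles) and scaled values (yellow squares). The dotted line marks the median of all genes on deposited TPM and the dashed lines the limit of 1.5-fold in either direction. Scaling moves every gene to the left, and Bhlhe40 in IF vs FED lies farthest below 0.

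Arntl, the activator of the loop, was at 6.37, 6.66 and 7.20 TPM in the FED livers, at 7.48, 6.95 and 5.60 in IF and at 12.63, 7.28 and 3.83 in FMD. The FED and IF values overlapped within a narrow range, and the FMD livers spanned both the highest and the lowest value of the 9. The log2 fold change was -0.02 for IF vs FED (limma, standard error 0.29, adjusted p = 0.969) and 0.08 for FMD vs FED (adjusted p = 0.814), neither larger than the spread between libraries. On scaled values the IF libraries were all below the FED libraries, with a difference of -0.27 (limma adjusted p = 0.476). The FMD difference depended on replicate 1, without which it was -0.29 on deposited TPM (limma adjusted p = 0.224). On scaled values it was -0.41 (adjusted p = 0.229) with this library, and without it Arntl was called lower at -0.67 (limma adjusted p = 0.0285).

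Of the cryptochromes, the repressors of ARNTL and CLOCK, Cry2 showed the most even separation from FED. Cry2 was at 7.67, 6.35 and 6.07 TPM in FED, at 12, 13.25 and 9.67 in IF and at 12.21, 14.28 and 12.80 in FMD. Every IF and FMD liver was above every FED liver, and the IF and FMD livers overlapped. The log2 fold change was 0.71 for IF vs FED (limma, standard error 0.14, adjusted p = 0.00588) and 0.88 for FMD vs FED (standard error 0.14, adjusted p = 7.9e-04). Both calls held without any single library of the 9, with log2 fold changes from 0.62 to 0.83 for IF and from 0.82 to 0.96 for FMD. On scaled values they were 0.46 (limma adjusted p = 0.0722), with the IF libraries still all above FED, and 0.38 (adjusted p = 0.103), with an overlap, and neither was called. For FMD vs IF the difference was 0.16 (limma, standard error 0.14, adjusted p = 0.388).

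Cry1 was lower than Cry2 in every library. Cry1 was at 5.04, 3.29 and 3.20 TPM in FED, at 4.45, 5.71 and 4.14 in IF and at 6.81, 4.68 and 6.27 in FMD. FED replicate 1 lay within the range of both diet groups, so FED overlapped each of them. FMD replicate 2 lay within the IF range, so the diet groups overlapped too. Its log2 fold change was 0.26 for IF vs FED (limma adjusted p = 0.302) and 0.52 for FMD vs FED (adjusted p = 0.0267), the latter under the fold limit. Without FED replicate 1 or without FMD replicate 2 the FMD difference was 0.69 or 0.66 and was called. On scaled values the differences were 0.04 for IF and 0.07 for FMD (limma adjusted p = 0.919 and 0.823).

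Bhlhe40, the E-box repressor, was the 1 gene of the 6 called between the diets themselves. It was at 28.41, 21.76 and 26.61 TPM in FED, at 17.34, 15.72 and 16.29 in IF and at 26.96, 26.30 and 48.01 in FMD. All IF livers were below all FED livers and all FMD livers, while FED and FMD overlapped, and FMD replicate 4 was far above the rest. For FMD vs IF the log2 fold change was 0.94 (limma, standard error 0.21, adjusted p = 0.0306). The call was lost without FED replicate 1 or 3 (limma adjusted p = 0.0525 and 0.0588) and without IF replicate 1, 2 or 3 (adjusted p = 0.0961, 0.115 and 0.113). The call held without FMD replicate 4, where the difference was 0.66 (limma adjusted p = 0.0085), and without FMD replicate 1, where it was 1.07 (adjusted p = 0.0211). On scaled values the difference was 0.68 (limma adjusted p = 0.14), with the IF libraries still all below FMD.

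For IF vs FED the difference of Bhlhe40 was -0.60 (limma, standard error 0.21, adjusted p = 0.0575), just outside the threshold, in a direction in which 1.59% of all genes were called. It was called lower on scaled values at -0.87 (limma adjusted p = 0.0446), without FMD replicate 1 (adjusted p = 0.0269) and without FMD replicate 4 (adjusted p = 0.00501). A fit of FED and IF alone (limma adjusted p = 0.00168) and library weights (adjusted p = 8.8e-04) also called it lower. Without any one of the FED or IF libraries it was not called, at adjusted p of 0.0712 to 0.174 by limma. For FMD vs FED the difference was 0.34 (limma adjusted p = 0.161) and turned to -0.19 on scaled values (adjusted p = 0.625).

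Dbp, the D-box activator and a direct output of the loop, had the largest differences from FED of the 6 genes on deposited TPM. It was at 14.04, 9.67 and 11.86 TPM in FED, at 22.98, 38.79 and 23.72 in IF and at 14.58, 45.43 and 41.78 in FMD. Every IF and FMD liver was above every FED liver, but FMD replicate 1 was only just above FED replicate 1. The log2 fold change was 1.17 for IF vs FED (limma, standard error 0.37, adjusted p = 0.041) and 1.30 for FMD vs FED (standard error 0.37, adjusted p = 0.0108). The IF call was lost without any one of the 3 FED or 3 IF libraries, at adjusted p of 0.0676 to 0.158 by limma, with log2 fold changes from 0.94 to 1.30. On scaled values neither call remained, at 0.91 for IF (limma adjusted p = 0.191), still without overlap, and 0.78 for FMD (adjusted p = 0.222), with an overlap.

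Without FMD replicate 1 the Dbp values separated further. The log2 fold change for FMD vs FED was then 1.81 (limma, standard error 0.21, adjusted p = 2.3e-04) and on scaled values 1.40 (adjusted p = 0.00188). The IF difference, in the same fit and with a smaller estimate of the spread, had an adjusted p of 0.00159 by limma and was also called on scaled values (adjusted p = 0.0093). Without this library 25.0% of all genes were called in FMD vs FED and 13.0% in IF vs FED, or 11.1% and 8.34% on scaled values. For FMD vs IF the difference of Dbp was 0.13 with all libraries (limma, standard error 0.37, adjusted p = 0.799), and without FMD replicate 1 it was 0.64 and not called (standard error 0.21, adjusted p = 0.103).

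Nfil3, the D-box repressor, was at 12.43, 17.74 and 20.56 TPM in FED, at 24.92, 17.35 and 21.18 in IF and at 29.34, 14.54 and 15.50 in FMD. The 3 groups overlapped, and the FMD livers again held the highest value of the 9. The difference on the log2 scale was 0.32 for IF vs FED (limma, standard error 0.26, adjusted p = 0.377) and 0.17 for FMD vs FED (adjusted p = 0.557), and neither was called under any alternative run. On scaled values they were 0.05 (limma adjusted p = 0.901) and -0.35 (adjusted p = 0.261), and for FMD the direction turned. It also turned without FMD replicate 1, at -0.13 (limma adjusted p = 0.564), and on scaled values the difference was then -0.54 (adjusted p = 0.075).

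Ratios of 2 genes within a library do not depend on the scaling of that library, and they are given as a description with no test. The ratio of Dbp to Arntl was 2.20, 1.45 and 1.65 in FED, 3.07, 5.58 and 4.24 in IF and 1.15, 6.24 and 10.9 in FMD. All IF livers were above all FED livers, while FMD held both the lowest ratio, in replicate 1, and the 2 highest. The ratio of Cry1 to Cry2 was 0.657, 0.518 and 0.527 in FED, 0.371, 0.431 and 0.428 in IF and 0.558, 0.328 and 0.490 in FMD. It was lower in all IF livers than in any FED liver, and overlapped in FMD.

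The ratio of Bhlhe40 to Arntl was 4.46, 3.27 and 3.70 in FED, 2.32, 2.26 and 2.91 in IF and 2.13, 3.61 and 12.5 in FMD. It too was lower in all IF livers than in any FED liver, whereas the FMD livers spanned the whole range. The ratio of Dbp to Nfil3, the opposing D-box factors, was 1.13, 0.545 and 0.577 in FED, 0.922, 2.24 and 1.12 in IF and 0.497, 3.12 and 2.70 in FMD. Its groups overlapped, with FED replicate 1 above IF replicate 1 and FMD replicate 1 below every other liver.

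**Figure D3:**
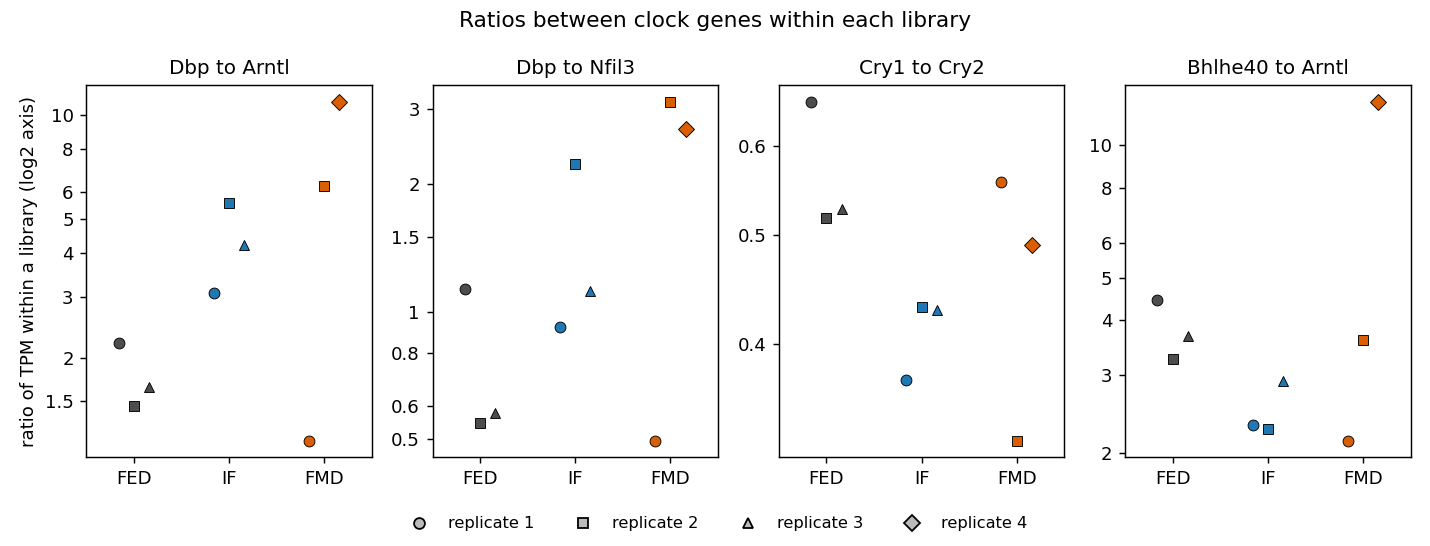
Ratio of the TPM of 2 clock genes within each library, on a log2 axis that does not start at 0, with 1 panel per ratio and the marker shape giving the replicate number. The IF livers lie above the FED livers for Dbp to Arntl and below them for Cry1 to Cry2 and Bhlhe40 to Arntl, and the FMD livers are spread most widely in all 4 panels.

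The livers of the FMD group differed among themselves in the clock genes. In FMD the SD of log2(TPM + 1) was 0.88 for Dbp, larger than that of 98.0% of all genes tested, 0.75 for Arntl (97.0%), 0.53 for Nfil3 (91.2%) and 0.48 for Bhlhe40 (87.7%). Cry1 at 0.24 was near the median of 0.25, and Cry2 at 0.11 varied less than most genes. Large spreads were also seen in the other groups: the SD of Dbp was larger than that of 98.7% of genes in IF and 92.3% in FED, and that of Nfil3 larger than 97.3% in FED, where the median gene had an SD of 0.10. Arntl in FED and Bhlhe40 in IF, with SDs of 0.08 and 0.07, were below the median of their groups.

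FMD replicate 1 differed from the mean of FMD replicates 2 and 4 by -1.52 in Dbp on the log2 scale, a difference lower than that of all but 0.0429% of the genes tested. Arntl and Nfil3 differed the other way, by 1.11 and 0.92, above 96.8% and 94.5% of genes, while the median gene was higher by 0.30. Bhlhe40 was at -0.39, Cry2 at -0.14 and Cry1 at 0.28. On scaled values the differences were -1.84 for Dbp, 0.77 for Arntl, 0.58 for Nfil3, -0.73 for Bhlhe40, -0.46 for Cry2 and -0.02 for Cry1. The macrophage marker Cd68, the 1 gene of 7 on that list in the table, was at 64.0 TPM in this liver against 12.2 and 5.75 in the other FMD livers, 6.35 to 10.35 in FED and 3.14 to 5.99 in IF. Its part in the clock gene values was not tested.

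A list of 21 core clock genes, which includes the 6 described above, had 11 in the table, of which 9 were tested. On deposited TPM limma called 3 higher in IF vs FED (Cry2, Dbp and Per1), 4 higher (the same with Per2) and 1 lower (Nr1d1) in FMD vs FED, and 2 higher in FMD vs IF (Bhlhe40 and Per2). Of all genes tested, 10.3%, 35.5% and 4.67% were called higher in these comparisons, so 4 of 9 in FMD vs FED is near the share of all genes. The median log2 fold changes of the list were 0.32, 0.52 and 0.16, near the 0.24, 0.48 and 0.24 of all genes. On scaled values limma called 1 higher (Per1) and 1 lower (Bhlhe40) in IF vs FED. In FMD vs FED it called 2 higher (Per1 and Per2) and 1 lower (Nr1d1), and in FMD vs IF none. Of all genes, 7.14%, 11.1% and 2.23% were called in either direction in these comparisons. In FMD vs IF on scaled values 3 of the 9 had an unadjusted p under 0.05, 2 higher and 1 lower. The share of all genes under that limit was not counted, so this count is no result about the list. The period genes Per1 and Per2 and the nuclear receptor Nr1d1 were the other genes tested. Arntl2 and Bhlhe41, the paralogs of Arntl and Bhlhe40, were under the limit at 0.06 to 0.40 and 0.13 to 0.85 TPM.

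Per1, a repressor of the loop that also responds quickly to hormonal and nutritional signals, had larger differences from FED than any of the 6 genes. It was at 2.54, 1 and 1.88 TPM in FED, at 10.25, 11.04 and 10.38 in IF and at 14.97, 16.38 and 16.01 in FMD. The 3 groups did not overlap on deposited TPM. Its log2 fold change was 2.08 for IF vs FED (limma, standard error 0.18, adjusted p = 1.2e-04) and 2.62 for FMD vs FED (adjusted p = 9.6e-06), and both were also called on scaled values, at 1.90 and 2.18. For FMD vs IF the difference was 0.54 (limma adjusted p = 0.0783) and fell outside the limits. On scaled values it was 0.28 (limma adjusted p = 0.422), and the FMD and IF livers overlapped.

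Per2, a second period gene, was at 1.97, 1.04 and 1.26 TPM in FED, at 1.99, 2.45 and 1.93 in IF and at 3.29, 5.45 and 5.45 in FMD. Every FMD liver was above all others. It rose in FMD vs FED by 1.23 on the log2 scale (limma adjusted p = 6.9e-04) and in FMD vs IF by 0.85 (adjusted p = 0.0316), and the IF vs FED difference was 0.38 (adjusted p = 0.163). On scaled values the FMD vs FED call remained at 0.85 (limma adjusted p = 0.0264), although the FMD and FED livers then overlapped, and FMD vs IF was 0.64 (adjusted p = 0.131). Without FMD replicate 1 the FMD vs IF difference was 1.05 (limma adjusted p = 0.00887), and on scaled values it was then called, at 0.92 (adjusted p = 0.0265).

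Nr1d1, the repressor at ROR elements, was the 1 core clock gene called lower on deposited TPM. It was at 58.42, 64.60 and 62.51 TPM in FED, at 58.24, 53.75 and 40.95 in IF and at 25.38, 58.74 and 28.62 in FMD. FMD replicate 2 lay within the FED range and the other FMD livers were far below it. The log2 fold change for FMD vs FED was -0.80 (limma adjusted p = 0.0209), and -1.34 on scaled values (adjusted p = 0.0113). Without FMD replicate 1 it was -0.58 and not called (limma adjusted p = 0.0664), but on scaled values it remained at -1.01 (adjusted p = 0.0134). For IF vs FED it was -0.29 (limma adjusted p = 0.43), with the highest IF liver just below the lowest FED liver.

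Dbp, Per1 and Nr1d1, all E-box targets of ARNTL and CLOCK, thus differed unequally from FED. The ratio of Nr1d1 to Dbp, chosen after the values were seen, was 4.16 to 6.68 in FED, 1.39 to 2.53 in IF and 0.685 to 1.74 in FMD, with both diet groups wholly below FED. The ratio of Per1 to Dbp, chosen in the same way, was 0.103 to 0.181 in FED, 0.285 to 0.446 in IF and 0.361 to 1.03 in FMD, with both diet groups wholly above FED. Also chosen then, Per1 to Arntl was above FED in both diet groups. Cry2 to Arntl was above FED in IF, but in FMD it overlapped FED (0.967 to 3.34 against 0.843 to 1.20).

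**Figure D4:**
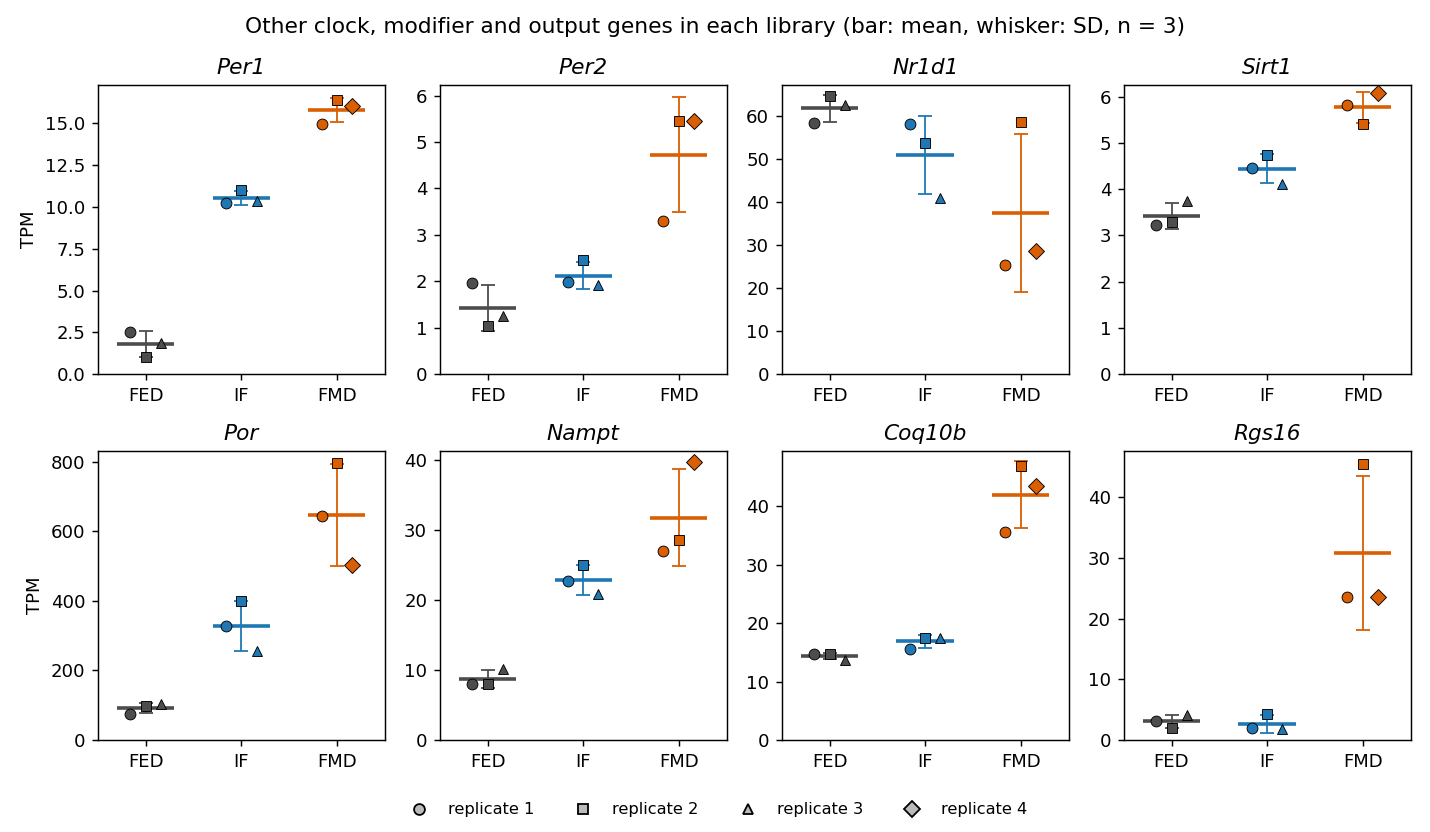
TPM of 3 other core clock genes (Per1, Per2, Nr1d1), 1 clock modifier (Sirt1) and 4 clock output genes (Por, Nampt, Coq10b, Rgs16) in each of the 9 livers, with the marker shape giving the replicate number, the bar the group mean and the whisker the SD (n = 3). Per1 and Por are lowest in FED and highest in FMD without overlap between groups, while Rgs16 and Coq10b stand out in FMD.

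A list of 20 clock output genes of liver had 8 in the table, all tested. On deposited TPM limma called 4 of them higher in IF vs FED, 7 in FMD vs FED and 4 in FMD vs IF, and none lower, where 10.3%, 35.5% and 4.67% of all genes were called higher. On scaled values it called 3, 6 and 2, against 7.14%, 11.1% and 2.23% of all genes in either direction. The 4 in IF were Por, Nampt, Alas1 and Wee1. Alas1 and Wee1 were named after their values were seen. The median log2 fold changes of the list were 0.66, 1.68 and 0.63, beside 0.24, 0.48 and 0.24 over all genes. The list was written with earlier results of these data known, so these counts and medians are a description and no test of the list. Por, the electron donor of the microsomal cytochrome P450 enzymes, was at 74.5, 97.9 and 103.6 TPM in FED, at 328.6, 400.3 and 255.7 in IF and at 642.9, 795.1 and 502.0 in FMD, with no overlap between groups. It rose by 1.81 in IF vs FED, 2.79 in FMD vs FED and 0.97 in FMD vs IF on the log2 scale (limma adjusted p = 4.0e-04, 1.5e-05 and 0.0296), and the last was not called on scaled values (adjusted p = 0.0818). Nampt, the rate-limiting enzyme of NAD salvage, rose by 1.30 in IF and 1.74 in FMD (limma adjusted p = 5.3e-04 and 4.5e-05).

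The other output genes named by the rule separated the diets. Rgs16, a regulator of G protein signalling, was at 3.20, 1.96 and 4.09 TPM in FED, at 1.94, 4.34 and 1.76 in IF and at 23.60, 45.47 and 23.52 in FMD. IF and FED overlapped, and FMD was far above both, with a log2 fold change of 2.93 against FED (limma adjusted p = 1.1e-04). Coq10b, a protein of coenzyme Q function in mitochondria, had a mean of 14.4 ± 0.547 TPM (SD, n = 3) in FED livers, 16.9 ± 1.08 in IF livers and 42.0 ± 5.76 in FMD livers. Its log2 fold change was 1.26 for FMD vs IF (limma adjusted p = 0.00123) and 0.22 for IF vs FED (adjusted p = 0.212), and the FMD calls of both genes remained on scaled values.

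A list of 27 modifiers of the clock, mostly kinases, ubiquitin ligase parts and chromatin proteins, had 11 in the table, all tested. Limma called none in IF vs FED or FMD vs IF, where 11.9% and 5.14% of all genes were called. There 3 and 4, all higher, had an unadjusted p under 0.05. No share of all genes was counted for this limit, so these counts are no result about the modifiers. In FMD vs FED limma called 4 higher, a share near the 35.5% of all genes called higher there and so no result about the modifiers. Sirt1, an NAD-dependent deacetylase, had a log2 fold change of 0.62 in FMD vs FED (limma adjusted p = 0.00146), Csnk1d, the casein kinase that phosphorylates PER proteins, 0.70 (adjusted p = 0.0021), and Nono, an RNA-binding partner of PER, 0.59 (adjusted p = 0.00428). The other gene called was Fbxw11, a ubiquitin ligase part named after its value of 0.63 was seen (limma adjusted p = 0.0125). Without FMD replicate 1 limma called 2 of the 11 modifiers, against 25.0% of all genes. Csnk2a2, a casein kinase 2 subunit, was at 0.56 (limma adjusted p = 0.00396), under the fold limit. On scaled values no modifier was called by limma in any comparison. Of all genes, 7.14% were then called in IF vs FED, 11.1% in FMD vs FED and 2.23% in FMD vs IF. In FMD vs FED on scaled values 1 modifier, which was lower, had an unadjusted p under 0.05. The median of the list in FMD vs FED, 0.56 on deposited TPM, was 0.03 on scaled values.

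Of the marker lists for other liver cells, few genes were in the table: 1 of 7 for macrophages (Cd68), 2 of 6 for stellate cells, 1 of 5 for bile duct cells, and none of 6 for endothelial cells or of 7 for blood cells and lymphocytes. The stellate markers Dcn and Col1a1 summed to 65.0 to 91.8 TPM in FED, 121 to 157 in IF and 106 to 214 in FMD. The FED sums were thus below those of either diet. Ranges were also apart from FED at 60.6% of all genes for IF and at 70.7% for FMD. This separation is therefore no result about stellate cells. Dcn made up nearly all of the sum. It rose by 0.86 in IF and 0.90 in FMD on the log2 scale (limma adjusted p = 0.0229 and 0.0074). Dcn was not called on scaled values. Col1a1, at 0.27 to 1.63 TPM, did not rise with it, at -0.13 and -0.22 (limma adjusted p = 0.684 and 0.409). On scaled values without FMD replicate 1, Col1a1 was called lower in FMD vs FED, at -0.68 (limma adjusted p = 0.0311). The bile duct marker Krt19 ranged from 0.76 to 4.07 TPM. The part of these cells in the results was not tested.

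The genes whose pattern over the 9 libraries was most like that of each clock gene were found by Pearson's r on scaled log2 values, as a description. For Arntl they were D11Wsu47e (r = 0.935) and Ccnc (0.916), and for Bhlhe40 Lurap1l (0.955) and Foxk2 (0.928). For Cry2 they were Tfap4 (0.937) and Anapc16 (0.935), and for Dbp Trp53bp2 (0.939) and Ddt (0.916). The nearest genes were less alike for Cry1, with Orai3 (0.862) and Mrps28 (0.837), and for Nfil3, with Gorab (0.855) and Tbc1d22a (0.849). None of these genes was on the clock lists.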

How the data were processed

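From the livers of 9 mice the authors made strand-specific libraries by oligo-dT enrichment and sequenced them on the DNBSEQ platform. The deposited table holds TPM to 2 decimals for 5608 genes. The submitters' processing notes name mm39 and DESeq2, and the quantification tool and annotation are not given in the sources used here. The table holds part of each library, so the depth is unknown and no counting error is given. Samples were grouped by their labels. P-values set a group difference against the spread between mice within groups. The main fit estimated this spread from all 3 groups together and moderated it with a trend over all genes tested. The spread of the FMD mice thus also enters IF vs FED.

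Values were analysed as log2(TPM + 1), a scale that understates changes of low genes, and the 4665 genes that reached a mean of 1 TPM over the libraries were tested. A single limma fit of all 9 libraries (version 3.58.1 in R 4.3.3, with a mean-variance trend in eBayes) gave the 3 comparisons, with Benjamini-Hochberg adjustment over all genes tested. A call needed an adjusted p under 0.05 and a change of more than 1.5-fold on this scale. Where genes with an unadjusted p under 0.05 are counted, the share of all genes under that limit was not counted. The fit was tested on simulated data. Promoter windows came from RefSeq (GRCm38.p6), and were matched by NCBI gene number. Summaries used pandas 2.3.3 and numpy 2.4.6 under python 3.11.15, and plots matplotlib 3.10.9.

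The 6 genes and the gene lists were chosen with earlier results of these data known. Genes named are the 6, every other core clock gene in the table, up to 4 genes with the smallest adjusted p from each of the modifier and output lists, the 2 genes most like each member in pattern, and marker genes. As alternatives the scaling was changed (scaled values, quantile normalization), as were the pseudocount, the filter, the trend, the fold limit and library weights, and fits were made per pair of groups, with a replicate block and with each library left out. Genes outside the table were not analysed here.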

Additional observations from a re-analysis of the deposited data

Results flagged for a closer look

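The difference of Bhlhe40 between the diets stood out because the direct test of FMD vs IF, which is the difference of both diet effects against FED, passed the limits (log2 fold change 0.94, limma adjusted p = 0.0306). Against FED it was -0.60 in IF and 0.34 in FMD, and all 3 IF livers were below all 3 FMD livers. The adjusted p ranged from 0.00488 to 0.319 over the alternatives run. The same test passed for Per2 (0.85) and for the output genes Por (0.97), Coq10b (1.26) and Rgs16 (3.11). It also passed for the output gene Wee1 (0.80, limma adjusted p = 0.0451), which was named after its values were seen, but not without FMD replicate 1 (adjusted p = 0.0596) or on scaled values (0.59, adjusted p = 0.141). With 3 libraries in each group, single libraries were not tested as outliers.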

How the results depend on the processing

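The results depended most on scaling between libraries. On deposited TPM, 2 of the 6 clock genes were called in IF vs FED, 2 in FMD vs FED and 1 in FMD vs IF. On scaled values these counts were 1, 0 and 0, and after quantile normalization 0, 0 and 0. With a replicate block on scaled values they were 1, 0 and 0. Of all genes tested, 11.9%, 37.1% and 5.14% were called on deposited TPM, and 7.14%, 11.1% and 2.23% on scaled values. Beyond these and the fits without FMD replicate 1, no such share is given. The other counts are thus no result about the clock genes. Without a filter on low values the IF vs FED count was 1. With separate fits per pair of groups the FMD vs IF count was 0 and the IF vs FED count was 3, with Bhlhe40 added. Library weights also gave 3 in IF vs FED. With each library left out in turn, with or without scaling, the counts ranged from 0 to 3, 0 to 3 and 0 to 1. The calls of Cry2 against FED held under every alternative that left the scaling as deposited, each library left out included. Differences that turned direction, none of them called on deposited TPM, are listed in the order scaled values, quantile normalization, replicate block on scaled values. For FMD vs FED they were -0.41, -0.44 and -0.13 for Arntl, -0.19, -0.20 and -0.52 for Bhlhe40, and -0.35, -0.38 and -0.21 for Nfil3, and the last of the 3 alternatives gave -0.12 for Cry1. For FMD vs IF they were -0.085, -0.12 and -0.22 for Cry2 and -0.13, -0.12 and -0.46 for Dbp, the first 2 alternatives gave -0.14 and -0.17 for Arntl, and the last 2 gave -0.011 and -0.16 for Cry1. Library weights gave -0.003 for Arntl and -0.27 for Nfil3 in FMD vs FED. With each library left out, with or without scaling, the FMD vs FED difference ranged from -0.67 to 0.46 for Arntl, -0.54 to 0.49 for Bhlhe40, -0.042 to 0.69 for Cry1 and -0.54 to 0.35 for Nfil3. For FMD vs IF the ranges were -0.40 to 0.48 for Arntl, -0.075 to 0.40 for Cry1, -0.18 to 0.26 for Cry2, -0.45 to 0.64 for Dbp and -0.60 to 0.029 for Nfil3. For IF vs FED they were -0.33 to 0.086 for Arntl, -0.072 to 0.43 for Cry1 and -0.13 to 0.47 for Nfil3. The causes of these changes were not tested. The labels do not say whether the replicate numbers pair the mice. The deviations of libraries with the same number correlated at 0.177, 0.0400 and 0.00348 between FED and IF. They correlated at 0.109 and 0.00551 between FED and FMD, and at 0.110 and 0.159 between IF and FMD. Libraries with different numbers were not compared in this way, so these values cannot decide whether the numbers pair the mice. With the replicate block, Bhlhe40 was also called lower in IF vs FED (-0.60, limma adjusted p = 0.0077), giving 3 genes, and the FMD vs IF difference turned to -0.14 for Dbp and 0.063 for Nfil3, while FMD replicate 4, the 1 library of its number, carried no weight. Cry1 gave no value at a mean of at least 5 TPM, since its mean was lower. The depth of the libraries is unknown, so the counting error of genes at a few TPM, such as Cry1 and Per2, could not be given.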
